A study of Mus musculus with 10 samples.

Results

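The C1q and TNF related proteins (CTRPs) are secreted relatives of adiponectin, and the genes described here were chosen by name as *C1qtnf1*, *C1qtnf2*, *C1qtnf3*, *C1qtnf4*, *C1qtnf5*, *C1qtnf6*, *C1qtnf7* and *C1qtnf12*. Of these 8 genes, 7 were listed in the expression table of the uterus and all 7 passed the filter on low counts, among 29268 genes listed and 16993 genes tested. *C1qtnf5* was not analysed here. RNA was sequenced from the uterus of 5 HSD17B1TG and 5 WT female mice of the FVB/N strain, each 4 months old and each with a library of its own. HSD17B1TG mice were heterozygous for a transgene with the human *HSD17B1* cDNA, which encodes an enzyme that converts estrone to estradiol. The CMV-enhanced chicken beta actin promoter drives this transgene throughout the body, so its action is not limited to the uterus. By the study's methods HSD17B1TG mice do not cycle, and WT uteri for histology came from random phases of the cycle. The phase of the sequenced WT mice was not given in the sources used here. Mice are called TG1 to TG5 and WT1 to WT5, and the numbers pair no mice.

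A CTRP chain is built, as adiponectin is, from a signal peptide, a collagen-like stretch of glycine-led triplets and a globular C1q domain, whose fold resembles that of TNF. Chains join as trimers, and collagen-like stretches let trimers join to larger assemblies. CTRPs are known mainly as secreted factors of adipose tissue and stromal cells that act on glucose and lipid metabolism and on inflammation, and their roles in the uterus are less well described. *C1qtnf3* (CTRP3, also called cartducin) was first described in cartilage and is produced by adipose tissue. *C1qtnf12* (adipolin) is an insulin-sensitizing adipokine.

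The collagen-like stretch was compared between the genes because the length of this stretch differs among the family's chains. The coding sequences came from GENCODE M21 transcripts on GRCm38, and the stretch below is the start of the longest run of glycine-led triplets in the 3 genes whose expression differed most clearly between genotypes. Glycine codons at the head of a triplet are in capitals and each line holds 63 bases.
C1qtnf3: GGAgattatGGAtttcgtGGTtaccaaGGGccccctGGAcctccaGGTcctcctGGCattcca
C1qtnf6: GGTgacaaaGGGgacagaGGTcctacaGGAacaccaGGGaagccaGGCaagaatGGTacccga
C1qtnf12: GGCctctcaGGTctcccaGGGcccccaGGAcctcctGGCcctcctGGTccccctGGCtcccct

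The *C1qtnf3* stretch lies at chr15:10958005-10958067 on the plus strand. That of *C1qtnf6* lies at chr15:78525337-78527228 on the minus strand and spans an intron. That of *C1qtnf12* lies at chr4:155964771-155964833 on the plus strand. The longest run held 23 triplets in *C1qtnf3*, at codons 118 to 186 of 319. It held 14 in *C1qtnf6* (codons 83 to 124 of 264) and 8 in *C1qtnf12* (codons 94 to 117 of 308). *C1qtnf2* and *C1qtnf7* had the longest runs, with 34 triplets each, and *C1qtnf1* had 14. *C1qtnf4*, which is known for tandem C1q domains in place of a collagen stretch, had no run of more than 2 triplets in its 326 codons.

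**Figure D1:**
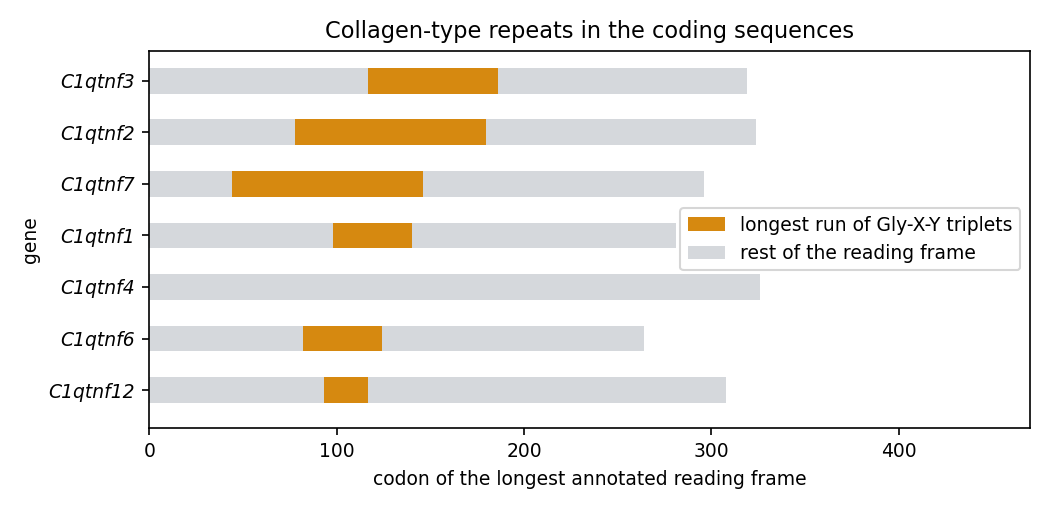
Position of the longest run of glycine-led (Gly-X-Y) triplets (orange) in the reading frame of each gene (grey), with the codon number on the horizontal axis. *C1qtnf2* and *C1qtnf7* hold runs of 34 triplets, *C1qtnf12* a run of 8, and runs under 4 triplets, as in *C1qtnf4*, are not drawn.

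*C1qtnf3* rose in the HSD17B1TG uterus and *C1qtnf6* fell. *C1qtnf12* was lower in every HSD17B1TG mouse than in any WT mouse but by less than 2-fold. *C1qtnf7*, *C1qtnf2*, *C1qtnf4* and *C1qtnf1* did not pass the test. A gene was called when edgeR's quasi-likelihood test gave a Benjamini-Hochberg adjusted p under 0.05 over all genes tested, the fold change was over 2 and the mean FPKM (read fragments scaled to gene length and library size) was over 1 in either group. By this rule 1 of 7 members was called up, beside 2.16% of all genes tested, and 1 of 7 was called down, beside 2.08%. By adjusted p alone 1 member was up, beside 3.34% of all genes, and 2 were down, beside 2.81%. The groups did not overlap in FPKM for 2 members that were lower in HSD17B1TG, beside 2.65% of all genes. They did not overlap for 0 members that were higher, beside 4.04%. The median log2 fold change was 0.49 over the 7 members and 0.002 over all genes tested.

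*C1qtnf3* (ENSMUSG00000058914, chr15:10952332-10980150, plus strand, GRCm38) was at 121, 31.4, 16.0, 103 and 36.1 FPKM in TG1 to TG5 and at 6.70, 18.0, 4.58, 15.7 and 7.98 FPKM in WT1 to WT5. TG1 and TG4 stood far above the other mice, and only TG3 lay within the WT range, below WT2. The mean was 61.5 ± 47.2 FPKM in HSD17B1TG and 10.6 ± 5.90 FPKM in WT (SD, n = 5 each). The log2 fold change was 2.53 with a standard error of 0.60 (edgeR, adjusted p = 0.0386), and the exact permutation test of the mean log2(FPKM + 1), two-sided, gave p = 0.0159, where 0.00794 is the smallest p that 5 against 5 mice allow. The call was lost when any 1 of 7 mice (TG2, TG4, TG5, WT1, WT2, WT3 or WT5) was left out, with adjusted p up to 0.0905, while the log2 fold change stayed between 2.14 and 2.79.

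*C1qtnf6* (CTRP6, ENSMUSG00000022440, chr15:78523346-78531416, minus strand) is described as an inhibitor of the alternative complement pathway. Its level was 12.2, 9.04, 10.2, 7.23 and 6.42 FPKM in TG1 to TG5 and 19.7, 16.1, 32.2, 15.5 and 12.3 FPKM in WT1 to WT5. Every HSD17B1TG mouse lay below every WT mouse, though TG1 and WT5 were close. The mean was 9.0 ± 2.30 FPKM in HSD17B1TG and 19.2 ± 7.73 FPKM in WT, with a log2 fold change of -1.10 and a standard error of 0.27 (edgeR, adjusted p = 0.0427). The exact permutation test gave p = 0.00794. Leaving out any 1 of the same 7 mice ended this call too (adjusted p up to 0.0956), with log2 fold changes between -1.24 and -0.85.

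*C1qtnf12* (ENSMUSG00000023571, chr4:155962318-155966629, plus strand) was at 5.89, 8.16, 6.07, 5.90 and 10.2 FPKM in TG1 to TG5 and at 12.1, 10.4, 15.3, 17.1 and 12.9 FPKM in WT1 to WT5. The groups did not overlap, and TG5 and WT2 were nearest to each other. The mean was 7.24 ± 1.89 FPKM in HSD17B1TG and 13.6 ± 2.65 FPKM in WT, and the log2 fold change was -0.91 with a standard error of 0.22 (edgeR, adjusted p = 0.0415). The exact permutation test gave p = 0.00794. This difference was under the 2-fold threshold, so the gene was not called. With 1 mouse left out its log2 fold change lay between -1.06 and -0.81, and its adjusted p, from 0.0442 to 0.0895, was under 0.05 only without TG1 and without WT4.

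*C1qtnf7* (ENSMUSG00000061535, chr5:43515538-43618803) is a CTRP found in adipose tissue. It was at 11.6, 3.78, 1.57, 6.26 and 2.19 FPKM in TG1 to TG5 and at 1.54, 2.25, 0.998, 2.92 and 3.19 FPKM in WT1 to WT5. TG1, TG2 and TG4 lay above all WT mice and the other two within their range. The log2 fold change was 1.21 with a standard error of 0.53 (edgeR, adjusted p = 0.179; exact permutation p = 0.159). Without TG1 it was 0.66 (adjusted p = 0.369).

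*C1qtnf2* (ENSMUSG00000046491, chr11:43474276-43491525), whose product is reported to raise fatty acid oxidation in muscle cells, was at 18.1, 6.81, 3.62, 9.01 and 2.36 FPKM in TG1 to TG5. In WT1 to WT5 it was at 3.45, 4.19, 3.65, 5.89 and 4.70 FPKM. TG1, TG2 and TG4 were again the mice above all WT mice, and TG5 lay below them. The log2 fold change was 0.86 with a standard error of 0.48 (edgeR, adjusted p = 0.283; exact permutation p = 0.333). Without TG1 it was 0.32 (adjusted p = 0.643).

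*C1qtnf1* (ENSMUSG00000017446, chr11:118428203-118449963), known from vascular tissue, was at 6.75, 3.05, 2.19, 5.84 and 2.09 FPKM in TG1 to TG5 and between 3.97 and 5.43 FPKM in the WT mice. The HSD17B1TG mice lay on both sides of the WT range, TG1 and TG4 above it and the other three below it. The log2 fold change was -0.30 with a standard error of 0.34 (edgeR, adjusted p = 0.623; exact permutation p = 0.246), and it ranged from -0.57 without TG1 to -0.13 without TG5. *C1qtnf4* (ENSMUSG00000040794, chr2:90885860-90890525), the member without a collagen stretch, was at 3.41, 1.78, 1.90, 5.29 and 2.69 FPKM in TG1 to TG5. Its WT levels were 1.54, 2.29, 3.22, 0.863 and 2.80 FPKM. TG1 and TG4 were above all WT mice, and the rest overlapped. Its log2 fold change was 0.49 with a standard error of 0.42 (edgeR, adjusted p = 0.507; exact permutation p = 0.310), and without TG4 it was 0.18. It had the lowest counts of the members, 23 to 110 per mouse.

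**Figure D2:**
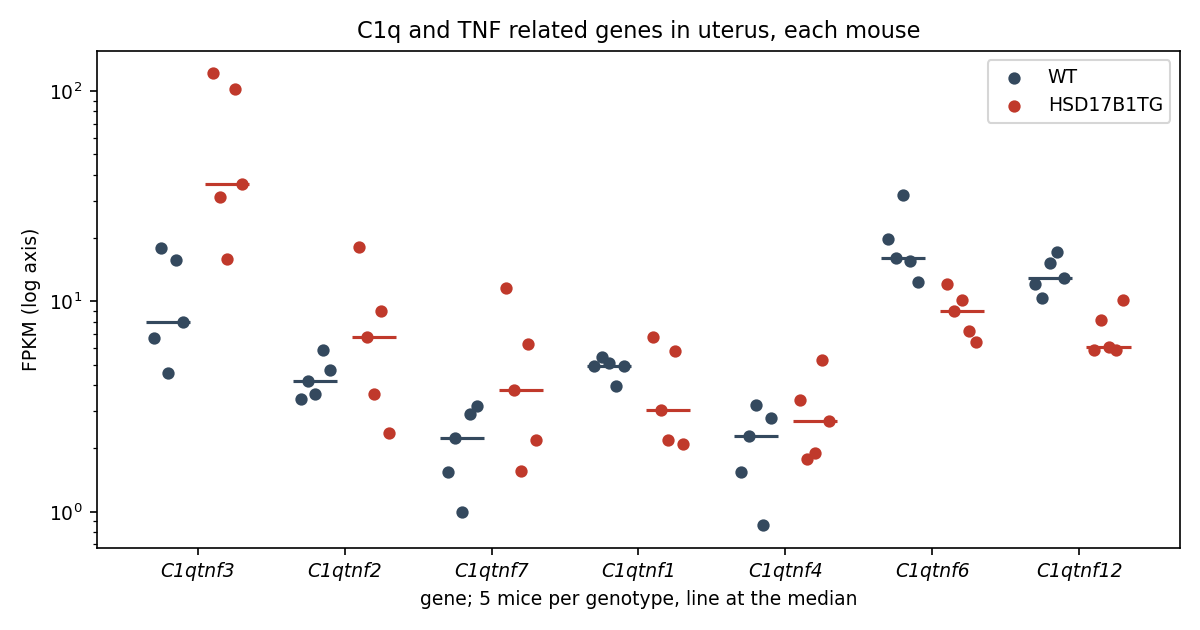
FPKM of each member on a log axis, with 1 point per mouse, WT in dark blue and HSD17B1TG in red, and a line at the median of 5 mice. *C1qtnf6* and *C1qtnf12* do not overlap between the genotypes, and *C1qtnf3* overlaps only through TG3 at 16.0 FPKM.

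**Figure D3:**
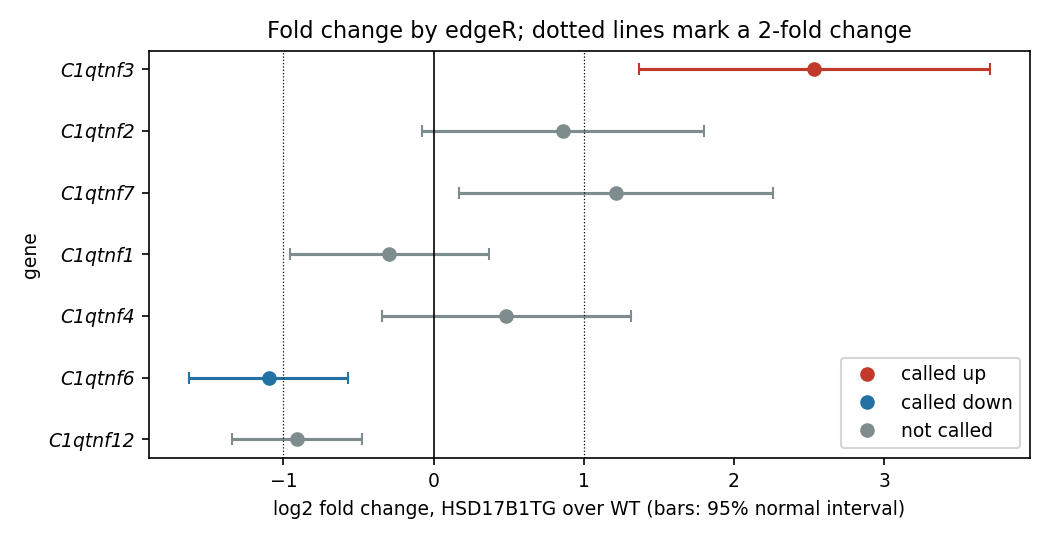
Log2 fold change of HSD17B1TG over WT by edgeR, with bars of 95% normal intervals and dotted lines at a 2-fold change. *C1qtnf3* at 2.53 is called up and *C1qtnf6* at -1.10 called down, and the bars of *C1qtnf2*, *C1qtnf4* and *C1qtnf1* cross 0. The bar of *C1qtnf7*, from 0.17 to 2.26, does not reach 0, but its adjusted p of 0.179 did not pass the test.

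The order of the members by FPKM, which corrects for gene length, differed between the groups. In WT, *C1qtnf6* was highest with 33.7% of the summed FPKM of the 7 members, ahead of *C1qtnf12* with 23.8% and *C1qtnf3* with 18.6%, followed by *C1qtnf1*, *C1qtnf2*, *C1qtnf7* and *C1qtnf4*. In HSD17B1TG, *C1qtnf3* was highest with 62.9%, ahead of *C1qtnf6* with 9.20%, and *C1qtnf2*, *C1qtnf12*, *C1qtnf7*, *C1qtnf1* and *C1qtnf4* followed. Of the neighbours in these orders, *C1qtnf3* and *C1qtnf6* did not overlap in HSD17B1TG and *C1qtnf2* and *C1qtnf7* did not overlap in WT. All other neighbours overlapped over the mice of the group. The share of *C1qtnf3* in the sum was 67.7, 49.1, 38.5, 72.2 and 58.2% in TG1 to TG5 and 13.4, 30.7, 7.05, 25.4 and 16.3% in WT1 to WT5, and every HSD17B1TG mouse lay above every WT mouse.

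The spread between mice differed among members. The ratio of the highest to the lowest HSD17B1TG mouse was 7.67 for *C1qtnf2*, 7.6 for *C1qtnf3* and 7.38 for *C1qtnf7*, and in WT the same ratios were 1.71, 3.93 and 3.20. Without TG1 the ratios in HSD17B1TG were 3.82, 6.44 and 3.98. For *C1qtnf1* the ratio was 3.23 in HSD17B1TG and 1.37 in WT, and for *C1qtnf4* it was 2.97 and 3.73. For *C1qtnf6* and *C1qtnf12* it was 1.89 and 1.72 in HSD17B1TG, and 2.61 and 1.65 in WT. *C1qtnf1*, *C1qtnf2*, *C1qtnf3* and *C1qtnf7* had their highest HSD17B1TG level in TG1 and their second highest in TG4.

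Members also varied together over the mice. With the group mean removed from log2 CPM (counts scaled to library size), Pearson's r over the 10 mice was 0.89 for *C1qtnf2* with *C1qtnf7*, 0.86 for *C1qtnf3* with *C1qtnf7* and 0.72 for *C1qtnf2* with *C1qtnf3*. Without TG1 these values were 0.81, 0.82 and 0.61. *C1qtnf1* with *C1qtnf2* was at 0.85 over all mice, with 0.94 among the 5 HSD17B1TG mice and -0.70 among the 5 WT mice. *C1qtnf6* was at 0.25 with *C1qtnf1*, 0.21 with *C1qtnf2*, -0.25 with *C1qtnf3* and -0.22 with *C1qtnf7*. Without TG1 these values were 0.02, -0.08, -0.54 and -0.61, and within WT the last was -0.97. *C1qtnf12* was negative with every other member, from -0.14 to -0.58, and from -0.03 to -0.52 without TG1, but within WT it was at 0.46 with *C1qtnf2* and 0.27 with *C1qtnf6*. The 21 pairs share libraries and their depth, and the values are a description.

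By the same measure, the protein-coding genes most like *C1qtnf3* were *Tbc1d9* (r = 0.965), *Ube2g1* (r = 0.962) and *Pou6f1* (r = 0.960) over 10 mice. *Tbc1d9*, a gene with a TBC domain of the kind that acts on Rab GTPases, was itself called up, with a log2 fold change of 1.16 (edgeR, adjusted p = 0.0440). Most like *C1qtnf6* were *Disc1* (r = 0.964), *Fbxl17* (r = 0.937) and *Slc9a5* (r = 0.929). Most like *C1qtnf12* were *Vps45* (r = 0.942), *Ikbkg* (r = 0.938) and *Chmp2a* (r = 0.928). Of these genes only *Tbc1d9* was called. *Disc1* was low, with means of 0.569 FPKM in HSD17B1TG and 0.396 FPKM in WT. The genes were picked for the highest r among all tested protein-coding genes, so high values follow from the choice, and they are a description.

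Cell type markers moved with some of the members. In bulk tissue, fewer cells of a type and less RNA per cell cannot be told apart. Of 11 stromal markers 7 were called down, and their log2 fold changes ran from -2.36 for *Hoxa11* to 0.51 for *Lum*. The summed FPKM of the stromal markers lay between 586 and 2266 in HSD17B1TG and between 1976 and 2542 in WT. The upper limit in HSD17B1TG was TG1, and the other HSD17B1TG mice reached at most 1266, below every WT mouse. Relative to the mean of the stromal markers, the log2 level of *C1qtnf6* was 0.35 higher in HSD17B1TG than in WT, with overlapping ranges of -3.40 to -2.47 and -4.13 to -2.78. That of *C1qtnf12* was 0.48 higher, and its HSD17B1TG range of -5.42 to -3.14 enclosed the WT range of -5.27 to -3.97. *C1qtnf3* was 3.73 higher by this measure, from -1.90 to 0.37 in HSD17B1TG and from -5.66 to -3.19 in WT. Every other member was higher too, *C1qtnf7* by 2.36, *C1qtnf2* by 1.93, *C1qtnf4* by 1.89 and *C1qtnf1* by 0.95. These last also did not overlap between the groups. The stromal mean that the measure subtracts was itself lower in HSD17B1TG, at 6.96 to 8.45 log2 CPM, than in WT, at 8.52 to 9.25. The part of the stromal markers in the lower *C1qtnf6* was not tested.

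Within HSD17B1TG, markers of several other cell types were also highest in TG1 and TG4, the mice with the highest *C1qtnf3*. The mesothelial markers summed to 64.6, 43.1, 17.9, 77.9 and 26.9 FPKM in TG1 to TG5 and to 26.9, 24.9, 17.9, 35.0 and 40.5 FPKM in WT1 to WT5. The endothelial markers summed to 132, 69.1, 38.0, 107 and 35.9 FPKM in TG1 to TG5 and to 93.9, 58.2, 133, 66.8 and 125 FPKM in WT1 to WT5. The highest endothelial sum was that of WT3, at 133 FPKM beside 132 FPKM in TG1, and WT3 had the lowest *C1qtnf3*. The smooth muscle markers summed to 7358, 2506, 1783, 3090 and 868 FPKM in TG1 to TG5 and to 1599, 502, 408, 5785 and 2064 FPKM in WT1 to WT5. Within WT, WT2 had the highest *C1qtnf3* with a smooth muscle sum of 502 FPKM. WT4, with the highest smooth muscle sum of WT, had the second highest *C1qtnf3*. *Adipoq*, which encodes adiponectin, was at 0.117, 1.33, 0, 13.7 and 0.140 FPKM in TG1 to TG5 and at 0, 3.09, 0, 1.33 and 0 FPKM in WT1 to WT5. The adipocyte markers were highest in TG4 and TG1 as well, and the summed FPKM of 7 of them was 15.3, 10.5, 4.75, 52.8 and 5.51 in TG1 to TG5 and 1.91, 12.8, 0.330, 8.28 and 2.29 in WT1 to WT5. Of the 2 list genes tested, *Plin4* had a log2 fold change of 1.62 (adjusted p = 0.215) and *Fabp4* of 1.96 (adjusted p = 0.144). TG4, WT2 and WT4 were high in both *C1qtnf3* and *Adipoq* for their group, whereas TG1 held the highest *C1qtnf3* with *Adipoq* at 0.117 FPKM. Among the 6 mice with *Adipoq* below 1 FPKM (TG1, TG3, TG5, WT1, WT3 and WT5), a set chosen after the data were seen, the log2 fold change of *C1qtnf3* was 3.16 with adjusted p = 0.143 (edgeR), and 0 of 17194 genes were called in that smaller fit. This set still holds TG1, whose adipocyte marker sum of 15.3 FPKM was above those of TG2, WT2 and WT4, which were left out. *C1qtnf6* was at -1.17 there (adjusted p = 0.239) and *C1qtnf12* at -0.88 (adjusted p = 0.262). The part of these cell types in the higher *C1qtnf3* was not tested.

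Smooth muscle markers were highest in TG1 among HSD17B1TG mice, with a summed FPKM of 7358, and in WT4 among WT mice, with 5785. No smooth muscle marker of 9 was called, and their log2 fold changes ran from 0.14 for *Actg2* to 1.2 for *Lmod1*. Without TG1 and WT4, a choice made after the data were seen, 1141 genes were called up and 879 down, against 367 and 354 with all mice, and the log2 fold change was 2.32 for *C1qtnf3* (edgeR, adjusted p = 0.0317), -1.30 for *C1qtnf6* (adjusted p = 0.0175) and -0.75 for *C1qtnf12* (adjusted p = 0.0607). The part of smooth muscle content in these differences was not tested. Of 7 epithelial markers none was called, from -0.23 for *Foxa2* to 1.54 for *Cldn7*, with a median of 1.24. Of the 7, 6 were higher with an unadjusted p under 0.05 (edgeR), beside 4430 of all 16993 genes tested, higher or lower. Their sum was 607 FPKM in TG1 and between 1617 and 2752 FPKM in the other HSD17B1TG mice, which all lay above the WT range of 382 to 1493 FPKM. Of the endothelial and mesothelial markers none was called. The endothelial markers ran from -1.36 for *Emcn* to 1.19 for *Cldn5*, and the mesothelial markers from -0.46 for *Wt1* to 1.92 for *Msln*. Among the leucocyte markers *Itgam* (3.86) and *Cd68* (1.58) were called up, and *Ptprc* was lowest at -1.08. The leucocyte markers summed to between 68.0 and 148 FPKM in HSD17B1TG and between 32.0 and 44.3 FPKM in WT, without overlap. In this sum *Cd68* had means of 54.1 and 18.1 FPKM in HSD17B1TG and WT and *Itgam* of 30.7 and 2.12 FPKM. *Csf1r* was at 11.9 and 8.59 FPKM, *Adgre1* at 3.52 and 3.53 FPKM and *Ptprc* at 0.939 and 1.98 FPKM, none of them called. Of 4 uterine markers *Hoxa10* (-2.14) and *Hoxa11* (-2.36), which are also in the stromal list and among its called genes, were called down. The uterine list summed to between 90.5 and 171 FPKM in HSD17B1TG and between 168 and 410 FPKM in WT. The other uterine markers, *Esr1* (33.9 and 34.9 FPKM in HSD17B1TG and WT) and *Pgr* (29.8 and 48.2 FPKM), were not called. The oviduct markers summed to at most 5.08 FPKM in any mouse.

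**Figure D4:**
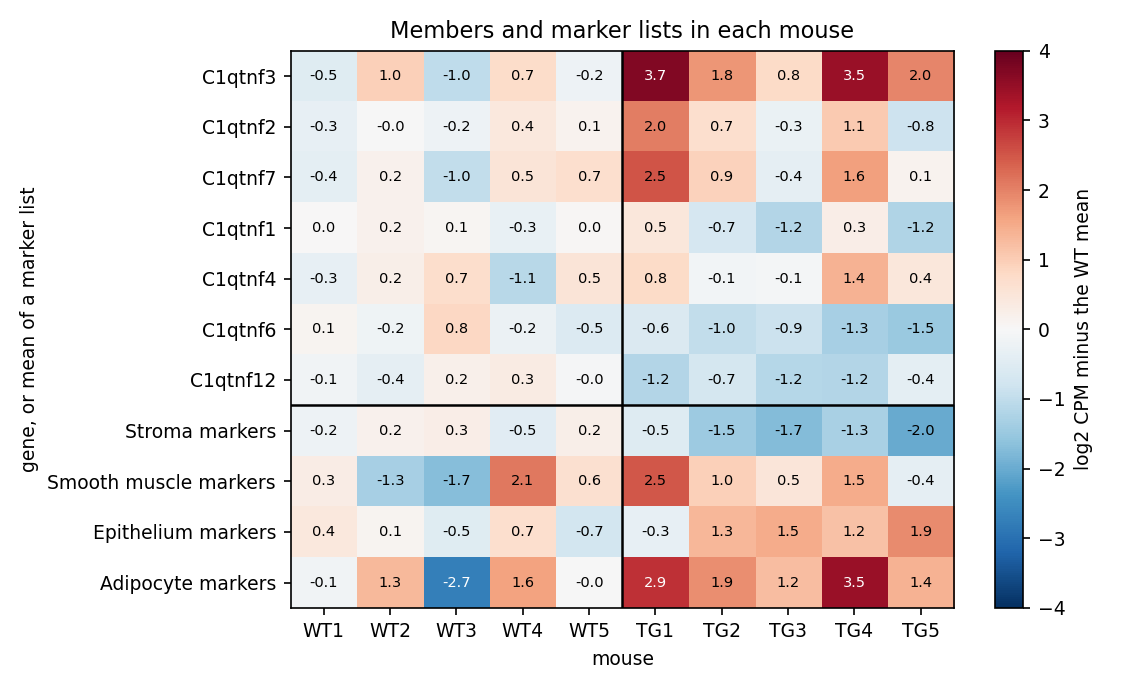
Log2 CPM of each member, and the mean of each marker list, minus the mean of the 5 WT mice, with mice in columns and blue below and red above the WT mean. The adipocyte row averages only *Plin4* and *Fabp4*, the list's tested genes. *C1qtnf3* reaches its highest values in TG1 and TG4, and *C1qtnf6* and *C1qtnf12* lie below the WT mean in all 5 HSD17B1TG mice.

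Other genes of the C1q family gave no call. Of 22 listed relatives outside the members 13 were tested, with a median log2 fold change of 0.08. Of these 0 were called, beside 2.16% of all genes called up and 2.08% called down, and 0 had an adjusted p under 0.05. An unadjusted p under 0.05 (edgeR) was found for 2 of the 13, beside 4430 of all 16993 genes tested. Those 2 were *Mmrn1* (multimerin, log2 fold change 1.90, adjusted p = 0.103) and *Caprin2* (-1.26, adjusted p = 0.121), both named after their values were seen. The chains of complement C1q itself, *C1qa*, *C1qb* and *C1qc*, had log2 fold changes of 0.21, -0.02 and 0.08.

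Receptors reported for CTRPs and adiponectin, and the AMPK kinase system through which adiponectin acts, gave 0 calls among 17 genes tested, with a median of -0.10. *Appl2*, an adaptor of the adiponectin receptors, had a log2 fold change of 0.94 and an adjusted p of 0.0319 (edgeR). It was at 21.1, 34.8, 22.5, 30.9 and 37.8 FPKM in TG1 to TG5 and at 18.0, 13, 14.1, 12.3 and 19.1 FPKM in WT1 to WT5, without overlap. The receptors *Adipor1* (0.31, adjusted p = 0.167) and *Adipor2* (-0.40, adjusted p = 0.271) did not pass the test. *Rxfp1*, the relaxin receptor, to which *C1QTNF8* has been reported to bind in human, was at 68.1 ± 42.0 and 106 ± 32.3 FPKM in HSD17B1TG and WT (adjusted p = 0.338).

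Of the genes of the alternative complement pathway reported here, on which CTRP6 acts, 1 was called up of 4 tested and 0 down, with a median of 2.86. *Cfi*, which encodes the protease that cleaves C3b, was at 99.1 ± 54.5 FPKM in HSD17B1TG and 14.7 ± 13.3 FPKM in WT (log2 fold change 2.76, edgeR adjusted p = 0.0376), with TG1 below WT1. *C3* was at 2972 ± 1729 and 298 ± 359 FPKM (3.33, adjusted p = 0.0814) and *Cfb* at 6.77 ± 6.73 and 0.868 ± 0.742 FPKM (2.95, adjusted p = 0.0668), neither past the test, and the groups did not overlap for *C3*. *Cfp*, which encodes properdin, was at 12.8 ± 2.99 and 13 ± 3.10 FPKM (-0.03, adjusted p = 0.950).

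Enzymes and chaperones that modify and assemble collagen-like stretches gave 0 genes called up and 2 called down of 16 tested, with a median of -0.29. *P3h1*, a prolyl hydroxylase, was at 6.82 ± 2.98 FPKM in HSD17B1TG and 19.8 ± 5.43 FPKM in WT (log2 fold change -1.55, edgeR adjusted p = 0.0305). *Serpinh1*, the collagen chaperone HSP47, was at 187 ± 87.2 and 427 ± 59.9 FPKM (-1.20, adjusted p = 0.0471), with no overlap between groups. By adjusted p alone *Plod1* was also lower (-0.81, adjusted p = 0.0299), and *Ero1l*, an oxidoreductase, was higher (0.83, adjusted p = 0.0429).

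The promoters of *C1qtnf3* and *C1qtnf6* are shown because these genes were called in opposite directions. They come from RefSeq on GRCm38.p6, cover 250 bases before and 50 after the start, and were found for 4 of the 7 members. Capitals mark the letters searched on either strand.
C1qtnf3: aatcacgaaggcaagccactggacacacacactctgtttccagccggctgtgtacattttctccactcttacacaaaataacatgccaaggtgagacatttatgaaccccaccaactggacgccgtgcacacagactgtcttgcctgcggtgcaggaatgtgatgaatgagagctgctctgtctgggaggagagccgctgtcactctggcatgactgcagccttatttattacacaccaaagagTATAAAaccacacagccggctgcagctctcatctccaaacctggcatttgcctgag
C1qtnf6: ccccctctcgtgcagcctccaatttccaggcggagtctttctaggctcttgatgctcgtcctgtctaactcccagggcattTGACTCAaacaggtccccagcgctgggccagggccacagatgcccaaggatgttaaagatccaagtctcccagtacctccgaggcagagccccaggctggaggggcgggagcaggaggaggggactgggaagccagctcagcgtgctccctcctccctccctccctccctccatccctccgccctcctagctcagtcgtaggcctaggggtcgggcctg

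The *C1qtnf3* promoter is chr15:10952082-10952381 on the plus strand and holds TATAAA, the letters of a TATA box, which 13.6% of 32841 promoters of this length hold. The *C1qtnf6* promoter is chr15:78529602-78529901 on the minus strand, around a RefSeq start that lies 1765 bases inside the gene as the table gives it. It holds TGACTCA, an AP-1 site (TGACTCA or TGAGTCA), which 5.20% hold. The core letters of an estrogen response element, GGTCA, were in neither but in that of *C1qtnf2*, and 40.5% of promoters hold them. TGTTCT, the core of a progesterone response element, was in none of the 4 and is in 19.0% of promoters. The GC content was 50.7% for *C1qtnf3* and 63.7% for *C1qtnf6*, and the median of all promoters was 52.7%. A match of letters is a description and not a site of binding.

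Total counts on genes were 14817228 to 23271988 per mouse, and a count of 3 at the lowest total is 0.202 CPM. The counts of the members ran from 23 for *C1qtnf4* to 5786 for *C1qtnf3*. Mitochondrial genes took 1.94 to 7.57% of counts in HSD17B1TG and 2.58 to 3.37% in WT. Exons of *C1qtnf1* shared 20.5% of their bases with the antisense gene *Gm11747*, and those of *C1qtnf6* shared 4.33% with *Gm49490*. The counting strand was not given in the sources used here, so the reads of these pairs cannot be told apart, and the partners held at most 12 and 13 counts in a mouse. The transgene is human and was not analysed here, so these values do not check the genotype of the mice.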

How the data were processed

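Uterine RNA of 10 mice was sequenced by the authors as paired-end reads of 150 bp, and their notes name HISAT2 2.0.5 and DESeq2, with Ensembl 94 (GRCm38). The authors deposited 1 table with raw counts per gene and mouse, a signal made of counts scaled by size factors, and FPKM that follow the same scaling. The counting program was not given in the sources used here. The authors' comparison columns (fold changes and p-values) and the enrichment tables were not used.

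Groups follow the labelled genotype. The deposited counts entered edgeR 4.0.16 under R 4.3.3 (filterByExpr, TMM, quasi-likelihood test, Benjamini-Hochberg over all genes tested), with 5 mice per group and no batch term. FPKM gave the levels and, as log2(FPKM + 1), the exact permutation test, which was two-sided. Correlations used log2 CPM (prior count 2). Alternatives were DESeq2 1.42.0, limma 3.58.1, other normalizations, filters and thresholds, and each mouse left out; the methods were tested on simulated counts. The members and gene lists were chosen with earlier results of these data known. Named genes were the members, the 3 genes most like each called member and like the member of smallest p in each direction, genes overlapping a member, called genes of each pathway list, and the extremes of each marker list. Further genes of these lists were named after their values were seen, to describe their range. 1 gene of the pathway lists is not reported here, and the counts and medians leave it out. The floor of 3 counts covers counting error only, and the intervals of fold changes come from edgeR's standard errors over the mice.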

Additional observations from a re-analysis of the deposited data

How the results depend on the processing

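No alternative reversed the direction of any member. The call of *C1qtnf3* and that of *C1qtnf6* were lost with limma on log2(FPKM + 1), at 2.21 (adjusted p = 0.0529) and -0.97 (adjusted p = 0.0541). They were also lost in the fit without the 4 mice with *Adipoq* at 1 FPKM or more, chosen after seeing the data, at 3.16 (adjusted p = 0.143) and -1.17 (adjusted p = 0.239). The count called up was 0 and the count called down 0 in both, and also with glmTreat, which tests against a 2-fold change and called 3 genes up and 1 down in all. With upper quartile normalization *C1qtnf12* was called down at -1.0, and with library size only at -1.09, which raised the count called down to 2 in each, as adjusted p alone did. With 1 mouse left out, the counts called up and called down each ranged from 0 to 1, *C1qtnf3* ranged from 2.14 to 2.79, *C1qtnf6* from -1.24 to -0.85 and *C1qtnf12* from -1.06 to -0.81. Over all genes, these fits called 38 to 888 genes up and 27 to 666 down. With DESeq2, 906 genes were called up and 666 down, against 367 and 354 by edgeR, and voom called 1083 and 665. Library size only moved the share of calls that were up from 50.9% to 36.7%, and the median of all genes by -0.17, and limma on log2(FPKM + 1) moved that share to 65.3%. The cause of these changes was not tested. Depth limits *C1qtnf4* most, with a lowest count of 23. No paired analysis was possible because the numbers that name the mice pair none of them.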
